A study of Mus musculus with 7 samples.

Results

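The 10 genes described here encode the front end of interferon signalling: the ligands Ifnb1 and Ifng, the receptor chains Ifnar1, Ifnar2, Ifngr1 and Ifngr2, the kinases Jak1 and Jak2, and the feedback inhibitors Socs1 and Socs3. They were chosen by gene symbol among the 55401 genes of a count table, and all 10 were found, of which 9 had enough counts to be tested. The table holds RNA sequencing of 7 libraries of microglia, enriched from mouse hippocampus with beads against the surface protein CD11b. The mice were C57BL/6, 6 to 8 weeks old and, by the title of the series, male. Every mouse was injected with AAV-RAM-Cre, a virus whose RAM promoter acts in neurons activated by an experience, and the injected site was the dentate gyrus of the dorsal hippocampus. In the 4 control libraries the second virus was AAV-Dio-EYFP, which carries a fluorescent protein, and in the 3 others it was AAV-Dio-Atg7-Flag, which carries the autophagy gene Atg7. The groups are called EYFP and ATG7, each virus being directed at neurons and not at the microglia that were sequenced. The labels do not say whether a library is 1 mouse or a pool, so p-values measure only the spread between these libraries.

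Interferon beta is the type I interferon made by many cells, and interferon gamma is made mainly by T and natural killer (NK) cells. Type I interferons bind a receptor of the chains IFNAR1 and IFNAR2, on which the kinases TYK2 and JAK1 sit, and interferon gamma binds IFNGR1 and IFNGR2, which carry JAK1 and JAK2. The kinases phosphorylate STAT proteins, which switch on target genes, among them Socs1 and Socs3, whose proteins inhibit the kinases and receptors. Microglia carry both receptors, and their response to interferon is known from infection, ageing and amyloid pathology.

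Total counts per library ranged from 35934210 to 55217119. All 10 microglia markers examined were detected, with a summed level of 22270 to 27600 CPM (counts scaled by depth, a gene's share of its library's scaled counts), and none of the 10 passed the test between the groups, with 0 at an unadjusted p under 0.05 by edgeR. The 10 choroid plexus markers, led by Ttr and Enpp2, summed to 47090 to 73270 CPM, so RNA of that tissue was present in every library. Markers of several other cell types leaned towards EYFP: a positive log2 fold change was found in 0 of 10 choroid plexus markers (median -0.27), 1 of 9 tested neuron markers (median -0.36) and 2 of 10 astrocyte and oligodendrocyte markers (median -0.27). None of these passed by edgeR, with 4, 1 and 2 of them at an unadjusted p under 0.05, and DESeq2 called 1 choroid plexus and 1 astrocyte or oligodendrocyte marker, both lower. Endothelial and mural markers leaned the other way, with 9 of 11 positive (median 0.15). Of the border macrophage and monocyte markers 6 of 10 were positive (median 0.03). No marker of either list passed by edgeR, with 1 endothelial or mural marker and 2 border macrophage or monocyte markers at an unadjusted p under 0.05. The border macrophage and monocyte markers reached a log2 fold change of 1.47, and DESeq2 called 1 of them, which was higher. The part of all these cells in the results on the members was not tested. Atg7 had means of 35.6 CPM in EYFP (SD 1.68, n = 4) and 34.9 CPM in ATG7 (SD 2.76, n = 3), which does not check the labels because the transgene was directed at neurons. The library labelled EYFP 3 stood apart: it had 938.5 CPM of the female transcript Xist, against at most 0.574 CPM elsewhere, and 27.6 CPM of the Y-linked gene Ddx3y, against at least 121.1 CPM elsewhere. That Xist level goes against the male sex in the title of the series, and Ddx3y was low but present. The cause was not tested. Results are therefore given with and without EYFP 3 where it bears on them.

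By the quasi-likelihood test of edgeR, adjusted by Benjamini-Hochberg over 19199 genes, 0 of the 9 tested members had an adjusted p below 0.05, against 0.755% of all genes tested that passed and 0.688% that passed as higher in ATG7. The count was also 0 with limma-voom, where 0.958% passed, and with the DESeq2 Wald test, where 3.61% of the genes with an adjusted p passed. DESeq2 gave an adjusted p to 8 members but not to Ifnb1 (DESeq2 unadjusted p = 0.0066), which could therefore not be called there. At an unadjusted p under 0.05 there were 4 of the 9, Ifnb1, Ifngr2, Jak2 and Socs1, all higher in ATG7. The share among all genes tested was 12% in either direction and 6.27% as higher in ATG7. All 9 had a positive log2 fold change, against 49.2% of all genes tested, and their median was 0.21, against -0.0037 for all genes. Such a lean was not particular to them: 12 of 13 immediate-early and dissociation genes (median 0.21) and 16 of 20 other receptors that signal through JAK kinases (median 0.20) were positive. Of 17 other negative regulators of the pathway 9 were positive (median 0.0038). In Ifngr2 and Jak2 every ATG7 library lay above every EYFP library, a pattern seen in 6.33% of all genes tested. Leaving out any single library, EYFP 3 included, gave 0 of 9 again. Without EYFP 3 the log2 fold changes were 0.17 for Ifnar1, 0.14 for Ifnar2, 0.12 for Jak1, 0.20 for Jak2 and 0.22 for Socs3. The count at an unadjusted p under 0.05 was 4 without EYFP 1, EYFP 3 or EYFP 4, but 3 without EYFP 2 or ATG7 2, 2 without ATG7 3 and 6 without ATG7 1. Where it was 4, the genes were the same only without EYFP 3. Without EYFP 1, Ifnar1 (edgeR unadjusted p = 0.0227) took the place of Socs1 (edgeR unadjusted p = 0.05945). Without EYFP 4, Socs3 (edgeR unadjusted p = 0.00977) took the place of Ifngr2 (edgeR unadjusted p = 0.0532).

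**Figure D1:**
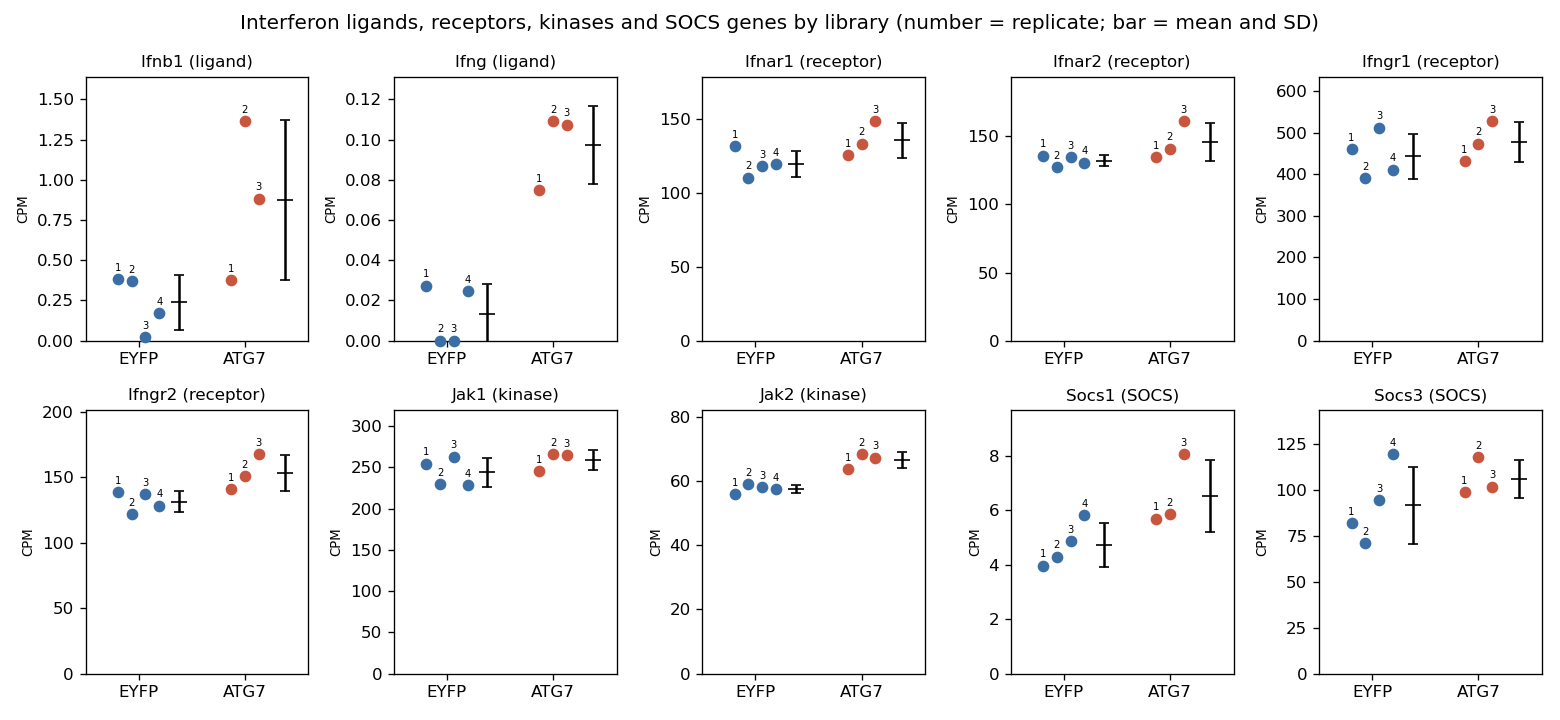
Level of each of the 10 genes in CPM (vertical axes, each starting at 0) in the 4 EYFP and 3 ATG7 libraries. Points are libraries with their replicate number, and bars are the mean and SD; the groups do not overlap in Ifng, Ifngr2 and Jak2.

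Stretches of sequence before the start of 3 of these genes are shown, the ligand Ifnb1 and both feedback genes, as examples of each of the 3 motifs described here, in genes that are known to be switched on by signals. Ifng is also such a gene, and its match is given by position only. The motifs were picked after the promoters of the members had been looked at, and 2 of them were shortened by 1 letter afterwards, which changed the share of promoters that match but no member. Capitals mark matches to these 3 motifs, searched on both strands in the 250 bases before each RefSeq start: GAAANNGAA, the core of the interferon-stimulated response element bound by IRF factors, TTCNNNGAA, the gamma-activated sequence bound by STAT dimers, and GGGANNTTC, a form of the NF-kB site. Each stretch, from RefSeq, holds 40 bases on either side of its matches and is read from the minus strand of GRCm38.p6.
Ifnb1, chr4:88522862-88522950: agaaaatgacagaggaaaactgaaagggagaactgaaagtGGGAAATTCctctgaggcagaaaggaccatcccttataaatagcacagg
Socs1, chr16:10785565-10785659: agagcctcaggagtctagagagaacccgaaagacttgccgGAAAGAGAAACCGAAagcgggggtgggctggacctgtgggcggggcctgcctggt
Socs3, chr11:117969472-117969560: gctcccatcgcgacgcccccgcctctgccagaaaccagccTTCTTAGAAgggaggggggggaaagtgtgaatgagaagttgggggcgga

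Socs1 had 2 matches of the response element that overlap by a few bases, from 83 to 69 bases before its start. It was the only one of the 10 genes with that motif, which 7.12% of 32817 promoters hold. The pattern fixes the spacing between GAAA and GAA. The Ifnb1 stretch shown holds gaaaactgaaa, where the spacing is wider, so the pattern does not mark it. Lack of a match to this pattern therefore does not show lack of a site for IRF factors. Socs3 had the gamma-activated sequence from 154 to 146 bases before its RefSeq start, and so did Ifng and Ifnar2 elsewhere in their windows, against 7.01% of promoters. GENCODE lets Socs3 begin further upstream, at 117970047 on the minus strand, so the stretch shown lies within the gene as annotated there. The NF-kB form was found in Ifnb1, from 116 to 108 bases before its start, and in Ifngr2, against 3.23% of promoters. A match describes the letters only, and all 10 genes were present in the promoter table.

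The order of the levels was set by gene length as well as by count, so levels were compared as CPM per 1000 exonic bases in the EYFP libraries. Ifngr1 was by far the most abundant, at 155.9 ± 19.03 (SD, n = 4), followed by Ifnar2 at 39.7 ± 1.14. Ifngr2 at 34.9 ± 2.11, Jak1 at 33.8 ± 2.40 and Socs3 at 31.7 ± 7.22 could not be placed in order, because the EYFP libraries of neighbours overlapped, and the highest of Socs3, 41.3, also exceeded Ifnar2. Ifnar1 was at 20.2 ± 1.48 and Jak2 at 11.5 ± 0.254, each below every EYFP library of the gene before it. Socs1 was at 1.63 ± 0.279, below Jak2 in every EYFP library. The ligands closed the order, Ifnb1 at 0.316 ± 0.230 and Ifng at 0.0100 ± 0.0116. The exonic length used joins all annotated transcripts of a gene, which lowers the value of genes with long rare forms.

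Of the ligands, Ifnb1 had low counts, and 1 of the 7 libraries was at or under 3 counts. EYFP 1 to 4 had 14, 17, 1 and 7 raw counts, whereas ATG7 1 to 3 had 15, 75 and 41. ATG7 2 and ATG7 3 were above every EYFP library, but ATG7 1 was level with EYFP 1 and EYFP 2, so the groups overlapped. The mean level was 0.237 CPM in EYFP (SD 0.173, n = 4) and 0.874 CPM in ATG7 (SD 0.495, n = 3), where 3 counts correspond to between 0.0546 and 0.0820 CPM. The log2 fold change was 1.90 with a 95% interval of 0.51 to 3.30 for the single gene, but it did not pass across all genes (edgeR adjusted p = 0.251). An exact permutation test over the 35 ways of parting 4 from 3 libraries gave p = 0.114, two-sided, with the smaller tail doubled. Counted instead by absolute differences of the means, a definition tried after the first values were seen, the exact permutation p was 0.0571. Without EYFP 3, the library with 1 count, the log2 fold change was 1.505 (edgeR adjusted p = 0.260). ATG7 2 held 75 of the 131 counts of its group, and without it the log2 fold change was 1.42 (edgeR unadjusted p = 0.0731, adjusted p = 0.615) and the difference of the means went from 0.637 to 0.391 CPM. Summed over libraries there were 39 counts in EYFP and 131 in ATG7, a ratio of 3.996 per scaled count, with an exact interval of 2.78 to 5.87 that covers counting error only and not the spread between libraries.

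Ifng was at or under 3 counts in 5 of the 7 libraries and was not tested in the filtered fit. EYFP 1 and EYFP 4 had 1 count each, EYFP 2 and EYFP 3 had 0, and ATG7 1 to 3 had 3, 6 and 5. The groups did not overlap (exact permutation p = 0.0571, two-sided, the smallest that 4 against 3 libraries can give when the smaller tail is doubled, so that this test could not pass 0.05). By absolute differences, the definition tried later, the exact permutation p was 0.0286, so on which side of 0.05 Ifng falls depends on that choice. The difference is of few counts, since a count of 0 allows up to 0.0665 CPM in EYFP 3. In all, 2 counts in EYFP stood against 14 in ATG7, a ratio of 8.33 with an exact counting interval of 1.91 to 75.5. In the fit with no filter on low counts Ifng was not called (edgeR adjusted p = 0.488). Of its exonic length, 25.9% is shared with the predicted gene Gm49751 on the same strand, and how shared reads were counted is not given in the sources used here.

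T and NK cells are the main source of interferon gamma, so their markers are given beside the ligands. All 14 T and NK cell markers had a positive log2 fold change, with a median of 1.59, and in 9 of them every ATG7 library was above every EYFP library. Among all genes tested, 49.2% were positive and 6.33% had every ATG7 library above every EYFP library. Their summed level was 9.45 to 16.6 CPM in EYFP and 19.3 to 40.02 CPM in ATG7, highest in ATG7 3. Ifnb1 was highest in ATG7 2, and Ifng had 6 counts there against 5 in ATG7 3, too few to order these libraries. Of the 14 markers, none was at 0 in every library. None of them passed (edgeR adjusted p from 0.0959, for the cytotoxic granule gene Gzmb), with 10 at an unadjusted p under 0.05 and 6 called by the DESeq2 Wald test. Trac, the constant chain of the T cell receptor and picked out after its values were seen, had 20, 25, 17 and 20 counts over EYFP 1 to 4, against 53, 42 and 120 over ATG7 1 to 3. The part of these cells in the counts of Ifng and Ifnb1 was not tested. In bulk libraries more cells of a type and more RNA per cell cannot be told apart.

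Other interferon genes had few counts or none. Of 19 further ligand genes, 13 of the alpha family with Ifnab, Ifnk, Ifne, Ifnz, Ifnl2 and Ifnl3, 15 had no count in any library and none could be tested. The 19 together had between 0 and 5 counts per library, which is 0 to 0.0273 CPM in EYFP and 0.0728 to 0.108 CPM in ATG7. Ifnz, picked out after its values were seen, had 0 counts in each EYFP library and 2, 3 and 2 in ATG7 1 to 3, so its groups did not overlap, but every library was at or under the floor of 3 counts. Alpha genes are near-identical copies, so reads shared between them may have been dropped or divided, and their counts are uncertain.

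The chains of the type I receptor were well above the counting limit in every library. Ifnar1, the chain that binds TYK2, was at 131.4, 110.2, 118.1 and 119.5 CPM in the EYFP libraries, in the order 1 to 4, against 125.3, 133.3 and 148.6 CPM in ATG7 1 to 3. Ifnar2, the chain that binds JAK1, was at 135.8, 127.6, 134.8 and 130.8 CPM in EYFP and 134.7, 141.0 and 161.3 CPM in ATG7. For both chains ATG7 3 was the highest library, and ATG7 1 lay within the range of EYFP. Their log2 fold changes were 0.18 for Ifnar1 (95% interval -0.0054 to 0.37, edgeR adjusted p = 0.435) and 0.14 for Ifnar2 (-0.0319 to 0.31, edgeR adjusted p = 0.535). A p that misses the threshold does not show equal levels: the intervals end at 1.29-fold for Ifnar1 and 1.24-fold for Ifnar2. Without ATG7 3 the log2 fold changes were 0.10 for Ifnar1 and 0.0539 for Ifnar2.

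Ifngr1, the ligand-binding chain of the interferon gamma receptor, was at 459.8, 391.1, 512.5 and 411.4 CPM over EYFP 1 to 4, and 431.1, 473.4 and 528.1 CPM in ATG7 1 to 3. The groups overlapped throughout, and the log2 fold change of 0.11 (95% interval -0.13 to 0.35) did not pass (edgeR adjusted p = 0.771). It was 0.0216 without ATG7 3 and 0.18 without EYFP 3. Ifngr2, the chain that carries JAK2 and is needed for signalling, was at 139.0, 121.9, 137.1 and 128.4 CPM in EYFP and 140.9, 151.1 and 167.9 CPM in ATG7. Here the groups did not overlap, by a narrow margin between EYFP 1 and ATG7 1. The log2 fold change came to 0.22, SE 0.0823 (edgeR unadjusted p = 0.0212, adjusted p = 0.307), a ratio of 1.17. Without EYFP 3 it was 0.24 (edgeR adjusted p = 0.320), and without ATG7 3 it was 0.14 (edgeR unadjusted p = 0.124, adjusted p = 0.694).

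Ifnar2, Ifnar1 and Ifngr2 lie in a row on the plus strand of chromosome 16 in GRCm38, from 91372783 to 91565623, with Il10rb between the first pair. Il10rb, a chain shared by the receptors for interleukin 10 and interferon lambda, had a log2 fold change of 0.11 (edgeR adjusted p = 0.655). All 4 values of this row were therefore positive and small, and none passed. Of the exonic length of Ifnar2, 9.46% is shared with the read-through gene Gm21970, which had no counts. Ifngr1 is apart from them on chromosome 10, from 19591949 to 19610229.

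**Figure D2:**
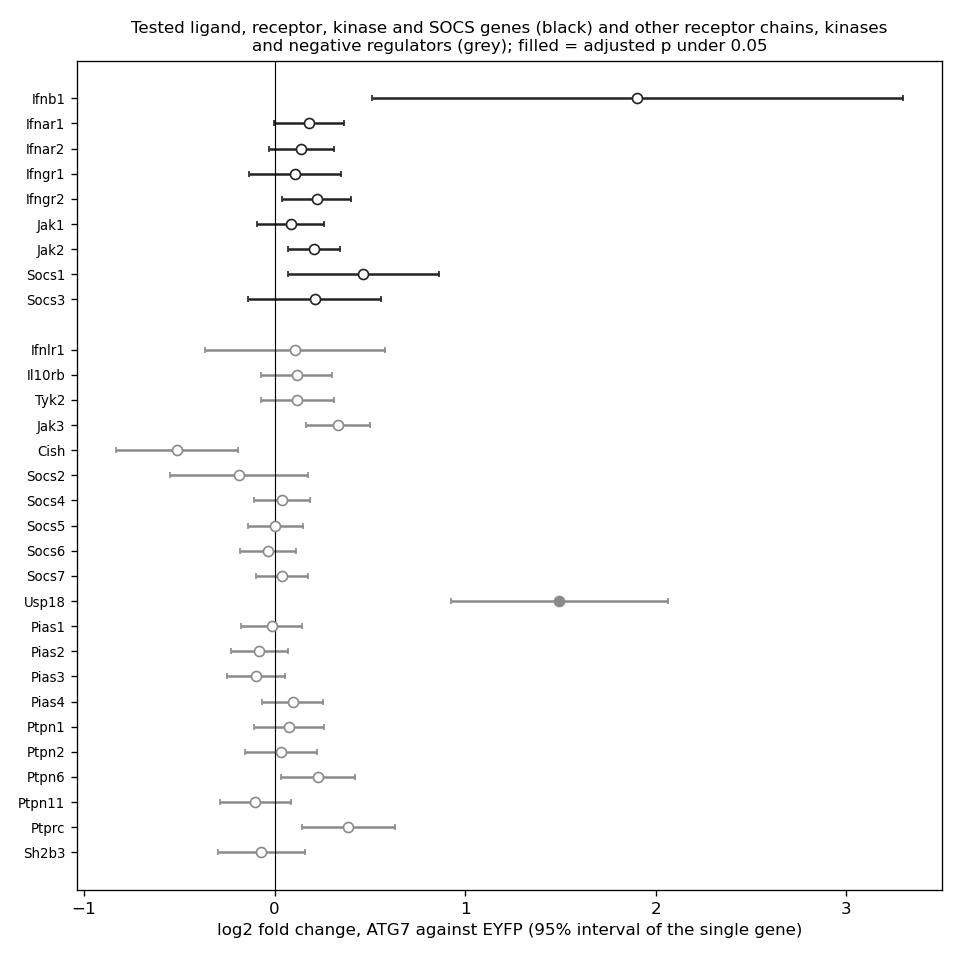
Log2 fold change of ATG7 against EYFP (horizontal axis) with the 95% interval of the single gene, for the 9 tested ligand, receptor, kinase and SOCS genes in black and 21 other receptor chains, kinases and negative regulators in grey. Filled points passed an adjusted p under 0.05, and Usp18 is the single filled one.

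Of the kinases, Jak1, which serves both receptors, was at 254.5, 230.1, 263.2 and 228.9 CPM over EYFP 1 to 4, and 245.3, 266.2 and 265.0 CPM in ATG7 1 to 3. The ranges overlapped, and the log2 fold change of 0.08 (95% interval -0.0926 to 0.26) did not pass (edgeR adjusted p = 0.749), and with 1 library left out it was 0.0516 (without EYFP 2) to 0.12 (without ATG7 1). Jak2, which serves the interferon gamma receptor and receptors for growth factors such as GM-CSF, was at 55.95, 58.98, 58.1 and 57.6 CPM in EYFP and 63.8, 68.5 and 67.4 CPM in ATG7. The EYFP libraries lay close together, and every ATG7 library was above all of them. Its log2 fold change came to 0.21, SE 0.0617, a ratio of 1.15 (95% interval 1.05 to 1.27). Jak2 had the smallest p of the tested members, 0.00640 before and 0.189 after adjustment by edgeR. Over the main and 14 alternative settings its log2 fold change was between 0.19 and 0.24 and its adjusted p between 0.0681 and 0.761.

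Tyk2 and Jak3, the other kinases of the family, belong to a list of 4 with Ifnlr1 and Il10rb. None of the 4 passed, and all had a positive log2 fold change, with a median of 0.12. Jak3, which works with the shared cytokine receptor chain Il2rg, averaged 78.4 CPM in EYFP (SD 4.995, n = 4) and 98.8 CPM in ATG7 (SD 7.09, n = 3), without overlap. Its log2 fold change of 0.33 (SE 0.0765) did not pass in the main test (edgeR adjusted p = 0.0861). With no filter and with the DESeq2 Wald test 1 gene of this list was called.

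Of 20 other receptors that signal through JAK kinases, 1 rose and none fell, with a median log2 fold change of 0.20. The one that rose was Il2rg, the common chain of several interleukin receptors. Il2rg averaged 5.34 CPM in EYFP (SD 1.13, n = 4) and 13.2 CPM in ATG7 (SD 2.35, n = 3), which is 1.31 in log2, SE 0.185 (edgeR adjusted p = 0.0118). Its adjusted p missed the threshold in 4 of 14 alternatives, among them leaving out EYFP 4, ATG7 2 or ATG7 3 alone. Il2rg is also expressed by T cells, whose markers are given above beside the ligands, and the part of those cells in it was not tested.

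Of the feedback genes, Socs1, whose protein blocks JAK1 and JAK2 directly, was at 3.96, 4.295, 4.86 and 5.82 CPM over EYFP 1 to 4, and 5.70, 5.86 and 8.06 CPM in ATG7 1 to 3. EYFP 4 was level with ATG7 1 and ATG7 2, and ATG7 3 was the highest library. Its log2 fold change came to 0.47, SE 0.181, a ratio of 1.38 (95% interval 1.05 to 1.82), and it did not pass (edgeR unadjusted p = 0.0256, adjusted p = 0.331). Leaving out ATG7 3 lowered it to 0.28 and leaving out EYFP 4 raised it to 0.58, and it was 0.47 without EYFP 3.

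Socs3, which acts on receptors of the interleukin 6 family and on JAK kinases, was at 81.8, 70.8, 94.4 and 119.4 CPM over EYFP 1 to 4, and 98.6, 117.6 and 101.7 CPM in ATG7 1 to 3. EYFP 4 was the highest of all 7 libraries, and the groups overlapped. Its log2 fold change came to 0.21, SE 0.156 (edgeR adjusted p = 0.665). It was 0.36 without EYFP 4 (edgeR unadjusted p = 0.00977, adjusted p = 0.354), and 0.0987 without EYFP 2 and 0.13 without ATG7 2. Its 95% interval ran from -0.14 to 0.56, which is 0.909 to 1.47 times the EYFP level. The 13 immediate-early and dissociation genes summed to 4021 CPM in EYFP 4 and to 2544, 2548 and 3196 CPM in EYFP 1 to 3, so EYFP 4 and then EYFP 3 were the highest controls, as for Socs3. In ATG7 they summed to 3390 to 3663 CPM, none of the 13 passed, and their part in the level of Socs3 was not tested.

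Among cytokines that act through STAT3 and can raise Socs3, 5 of 11 had enough counts and none passed. Il10 had the smallest p of them, averaging 0.401 CPM in EYFP (SD 0.161, n = 4) and 1.06 CPM in ATG7 (SD 0.603, n = 3), with overlapping groups (edgeR adjusted p = 0.226). Of 17 other negative regulators of the pathway, which include the remaining SOCS family, the PIAS proteins and phosphatases, 1 rose, none fell and the median log2 fold change was 0.0038. Usp18, which binds IFNAR2 and limits type I signalling, rose from a mean of 14.2 CPM in EYFP (SD 4.20, n = 4) to one of 39.8 CPM in ATG7 (SD 8.97, n = 3), that is by 1.49 in log2, SE 0.248 (edgeR adjusted p = 0.0420). It was at 19.2, 14.3, 8.89 and 14.3 CPM over EYFP 1 to 4, and 29.5, 44.05 and 45.8 CPM in ATG7 1 to 3, without overlap. Usp18 was not called in 6 of 14 alternatives, which were no filter, the replicate block and leaving out EYFP 2, EYFP 4, ATG7 2 or ATG7 3.

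Cish, a SOCS family gene induced through STAT5 and picked out after its values were seen, had the lowest log2 fold change of that list, -0.51, SE 0.145 (edgeR adjusted p = 0.168). It was called lower by DESeq2 (adjusted p = 0.0364) and, with edgeR, without EYFP 1 (log2 fold change -0.63, adjusted p = 0.0200). Its levels were 11.9, 17.9, 18.1 and 15.7 CPM over EYFP 1 to 4, and 12.3, 10.4 and 10.8 CPM in ATG7 1 to 3. EYFP 1 was within the range of ATG7, so the groups overlapped. Socs4 to Socs7 lay between -0.0361 and 0.0385, and the smallest adjusted p among them was 0.873 by edgeR.

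Ratios within a library, which do not depend on the scaling between libraries, were used to ask whether paired chains, kinases and inhibitors kept their proportion. Counted per length, the ratio of Ifnar1 to Ifnar2 was 0.507 in EYFP and 0.523 in ATG7, and the log2 difference of 0.04 was within the spread (exact permutation p = 0.400, two-sided, as for Ifng). Ifngr1 to Ifngr2 was 4.44 in EYFP and 4.12 in ATG7. Every ATG7 library was below every EYFP library in this ratio, a log2 difference of -0.11 (exact permutation p = 0.0571, the smallest possible), and EYFP 3 had the highest value. Without EYFP 3 the difference was -0.0584. Jak1 to Jak2 was 2.94 in EYFP and 2.71 in ATG7 (exact permutation p = 0.114), and Socs1 to Socs3 was 0.0518 and 0.0608 (exact permutation p = 0.400). Adjusted over the 4 ratios, the exact permutation p was 0.229 for Ifngr1 to Ifngr2 and for Jak1 to Jak2, and 0.400 for the others.

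**Figure D3:**
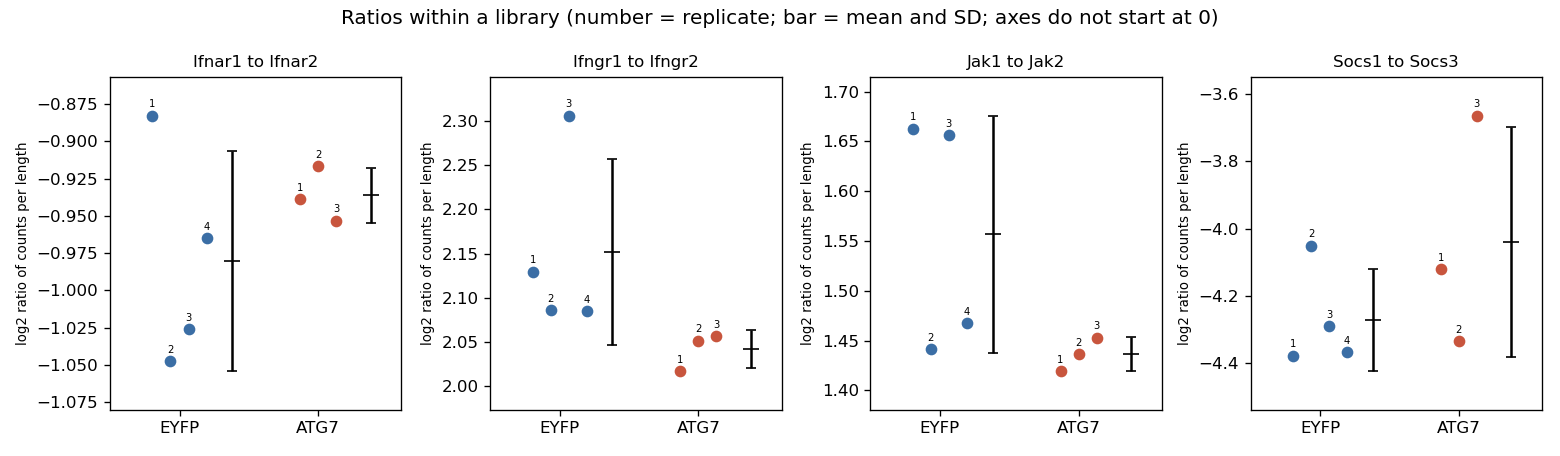
Log2 ratio of counts per length within each library (vertical axes, which do not start at 0) for 4 pairs of genes in the EYFP and ATG7 libraries. Points are libraries with their replicate number and bars are the mean and SD; Ifngr1 to Ifngr2 is the single pair without overlap between the groups.

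Several genes downstream of these receptors passed the test. Of 16 STAT and IRF factors, 3 rose and none fell (median log2 fold change 0.15). Among them, Stat2 rose by 0.93 (edgeR adjusted p = 0.0137) and Irf1 by 0.53 (edgeR adjusted p = 0.0483), both as log2 fold changes. The call of Irf1 held in 3 of 14 alternatives, and that of Stat2 in 9.

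Of 20 type I interferon targets, 9 rose and none fell, and all 20 had a positive log2 fold change with a median of 1.34. Bst2, which tethers virus particles, rose by 0.86 (edgeR adjusted p = 0.0105), the ubiquitin-like modifier Isg15 by 1.52 (edgeR adjusted p = 0.0182) and the RNA sensor Ifih1 by 0.58 (edgeR adjusted p = 0.0206). Of 20 interferon gamma targets, 11 rose and none fell, with a median of 0.61. The checkpoint ligand Cd274 rose by 0.87 (edgeR adjusted p = 0.00581), the GTPase Gbp2 by 1.14 and the peptide transporter subunit Tap1 by 0.78 (edgeR adjusted p = 0.00705 for both). Many of these 40 genes answer both interferons, so the lists do not separate the ligands. Both the pathway and the members were chosen with a rise of interferon targets in these libraries known, so the counts are no independent evidence of it.

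The count of 9 type I targets depended on the libraries. It was 19 without EYFP 3, 15 without EYFP 1, 2 without EYFP 2, and 0 without EYFP 4, ATG7 2 or ATG7 3. The 11 interferon gamma targets became 6 without EYFP 2 and 3 without EYFP 4, ATG7 2 or ATG7 3. EYFP 3 had the lowest summed level of type I targets, 430.1 CPM, while EYFP 1 had the highest of its group, 758.5 CPM, and the ATG7 libraries had 1059, 1402 and 1351 CPM. The same libraries, ATG7 2 and ATG7 3, were highest in type I targets and in Ifnb1, and EYFP 3 was lowest in both. These are 7 libraries that differ in both measures by group, and no relation between them was tested.

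**Figure D4:**
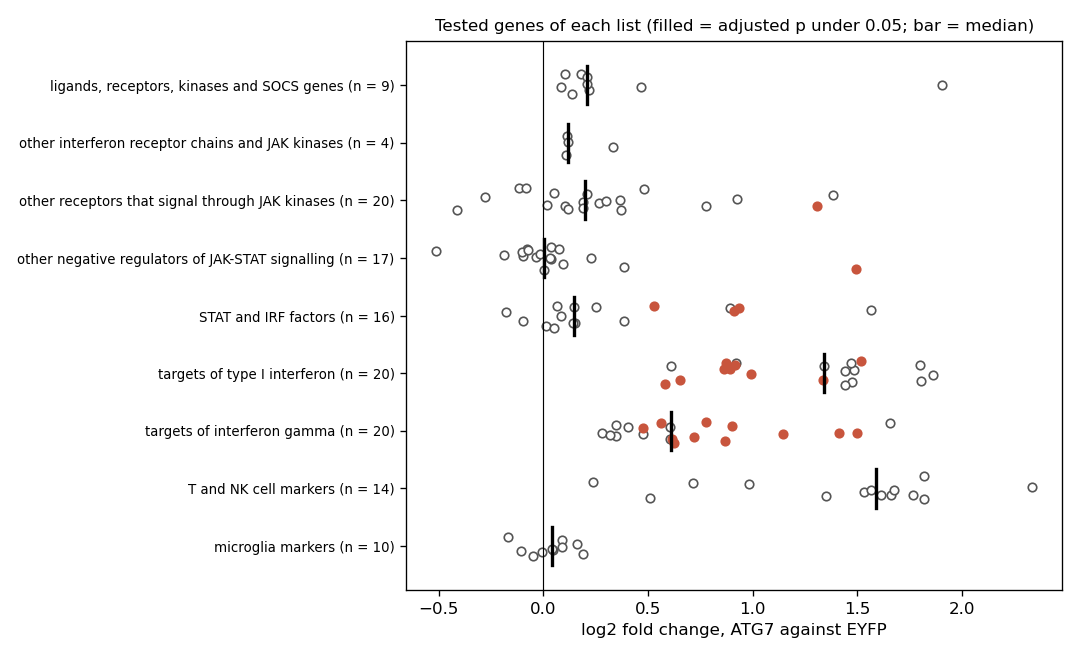
Log2 fold change of ATG7 against EYFP (horizontal axis) for the tested genes of 9 lists, with filled points at an adjusted p under 0.05 and a bar at each median. The ligand, receptor, kinase and SOCS genes have a median of 0.21 and no filled point, and the type I targets a median of 1.34 and 9 filled points.

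**Figure D5:**
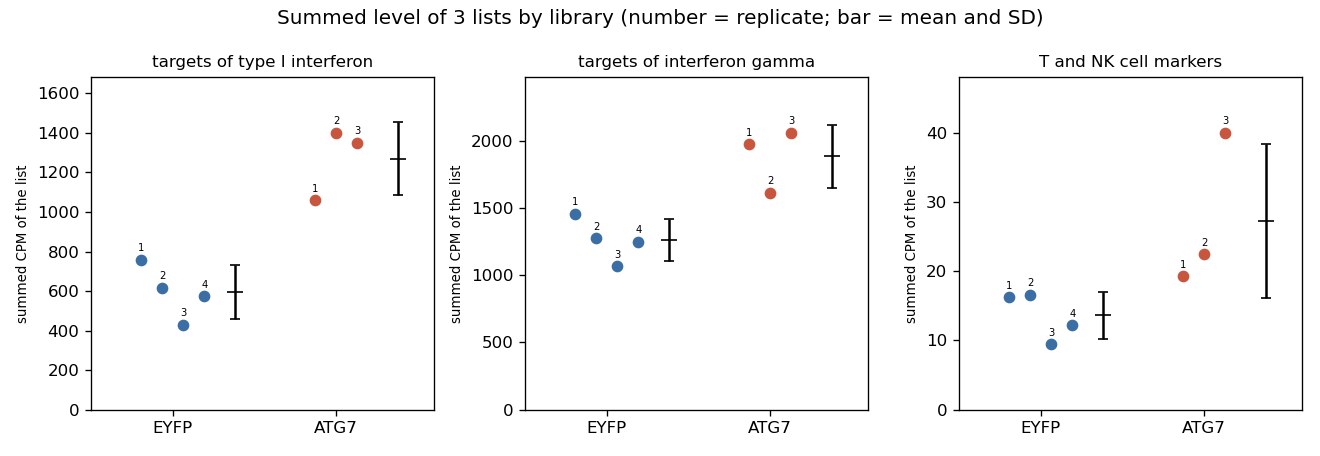
Summed level in CPM (vertical axes, starting at 0) of the type I interferon targets, the interferon gamma targets and the T and NK cell markers in each library, with the mean and SD of each group. In all 3 panels every ATG7 library is above every EYFP library, and EYFP 3 is the lowest library.

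Other genes with a like pattern over the 7 libraries were named by the Pearson correlation of log2 CPM among 11779 genes with a mean of at least 5 CPM. For Jak2 they were Tspan32, Hscb and Usp12 (r from 0.985 to 0.994), for Ifngr2 Urb2, Ell2 and Spty2d1 (r from 0.981 to 0.987), and for Socs1 Bahd1, Pmaip1 and Ranbp3 (r from 0.957 to 0.969). None of these 9 genes passed the test between the groups. With 7 libraries and that many genes, values of this size describe the libraries and are given without a p.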

How the data were processed

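RNA of CD11b-enriched microglia was sequenced in 4 EYFP and 3 ATG7 libraries. The authors deposited raw counts per gene. The submitters' processing notes name fastp 0.20.1, HISAT2 2.0.5, featureCounts and the builds mm10 and GRCm38. The annotation, strand setting and handling of shared reads are not given in the sources used here. Symbols, positions and exonic lengths came from GENCODE M21 (55141 of 55401 identifiers matched), promoters from RefSeq on GRCm38.p6.

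All 7 libraries entered 1 edgeR fit (version 4.0.16, R 4.3.3; quasi-likelihood, TMM factors, filterByExpr, robust dispersion, no covariate), with Benjamini-Hochberg adjustment over 19199 genes and a threshold of 0.05, two-sided. Intervals of log2 fold changes use the SE of that test. CPM were scaled by the TMM factors; log2 CPM used a prior count of 2. The floor was 3 counts. Exact permutation p-values were two-sided, with the smaller tail doubled; after a first look at the values a definition by absolute differences was also computed, and both are given for the ligands. Alternatives were DESeq2 1.42.0, limma-voom 3.58.1, other scalings and filters, a replicate block and leaving out each library. The code was tested on simulated data.

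The members and lists were chosen with earlier results of these data known. Of each of the 16 lists the text names up to 3 called genes with the smallest p, or else the gene with the smallest p, except for the marker lists without a bearing here; these were Olfml3, Plac8, Slc4a5, Kdr, Eno2, Slc7a10 and Zfp36, none of them called by edgeR. The values of 1 called gene of these lists are not reported here.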

Additional observations from a re-analysis of the deposited data

How the results depend on the processing

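The count of 0 called ligand, receptor, kinase and SOCS genes was the same under all 14 alternatives. Ifnb1 could not be called in all of them: it had no adjusted p with DESeq2 and was not tested with a filter at a mean of 1 CPM. Each tested member kept a positive log2 fold change in every alternative in which it was tested. Of all genes, 145 were called (132 higher, 13 lower), against 297 with no filter (234 higher, 63 lower), 585 with the DESeq2 Wald test (407 higher, 178 lower), 0 with the replicate block, and 28 to 277 with 1 library left out. Of the 8 pathway lists together, 25 genes were called, against 43 with DESeq2, 0 with the replicate block and 4 to 35 with 1 library left out. With no filter the called genes were 5 type I and 9 interferon gamma targets, 4 STAT and IRF factors, 1 JAK-coupled receptor, 1 negative regulator, 1 of the other receptor chains and kinases and 3 T and NK cell markers. With DESeq2 they were 20 type I and 12 interferon gamma targets, 1 of the other chains and kinases, 2 JAK-coupled receptors, 3 negative regulators (2 higher, 1 lower), 5 STAT and IRF factors and 6 T and NK cell markers, with 1 each of the border macrophage, choroid plexus and astrocyte and oligodendrocyte markers. With limma-voom 19 type I targets were called. With the replicate block every list had 0. With 1 library left out the ranges were 0 to 19 for type I targets, 3 to 11 for interferon gamma targets, 1 to 4 for STAT and IRF factors, 0 to 1 for JAK-coupled receptors, 0 to 2 for negative regulators and 0 to 1 for T and NK cell and for border macrophage markers. The cause of these shifts was not tested.

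Whether the same replicate numbers pair the libraries of the groups is not given by the labels. Deviations of same-numbered libraries from their group means correlated at -0.0609, -0.182 and 0.0664. For differently numbered libraries the correlations were -0.145 to 0.215. With so few libraries per group these values cannot decide whether the numbers pair the libraries. Ifng differed by 0.0843 CPM, with an exact permutation p of 0.0571, or of 0.0286 by absolute differences, the definition added after the values were seen. With 1 library left out the difference was 0.0783 to 0.0954 CPM, where the smallest exact permutation p is 0.1 or 0.133. The other definition moved no ratio and not Ifnb1 across 0.05. Over the settings the median of all tested genes lay between -0.0243 and 0.0031 (log2). Depth limits the ligands most, since Ifng was at or under 3 counts in 5 libraries.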
